A study of Mus musculus with 96 samples.

Results

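Kinesins, cytoplasmic dynein and dynactin move cargo along microtubules, and their genes were described here across single neurons of the mouse preoptic area. The members are genes whose symbol starts with Kif or Klc and a number, or with Dync, Dynl or Dctn, together with Fez1. Of 65 genes with such a name, the 41 with at least 1 count in 5 or more of 96 cells were kept, out of 24054 genes in the table. The cells came from the hypothalamus of C57BL/6N mice aged 2 to 3 months. Each cell was recorded by patch clamp, picked with a glass pipette and sequenced with Smart-seq2, a full-length method (Patch-seq). The labels sort 78 cells by temperature response into 24 insensitive, 21 warm-sensitive, 5 cold-sensitive, 18 silent insensitive and 10 silent sensitive neurons, and 18 cells carry no class. All cells share strain, age range, region and handling. The labels do not define silent, and name no animal, slice or day. Each class therefore counts as 1 sample, and every difference below is a description without a test.

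Kinesins mostly walk towards the plus ends of microtubules, which point away from the cell body in axons, and cytoplasmic dynein walks back towards the minus ends. Kinesin-1 is built from heavy chains (Kif5a, Kif5b, Kif5c) and light chains (Klc genes), and Fez1 is an adaptor that ties kinesin-1 to axonal cargo. Dynein-1 consists of a heavy chain (Dync1h1) with intermediate, light intermediate and light chains, and the dynactin complex (Dctn1 to Dctn6 and actin-related proteins) lets it run over long distances. Neurons depend on both motors because synaptic proteins, mitochondria and signalling endosomes travel along axons and dendrites.

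Promoter sequences from RefSeq (build GRCm38.p6) were found for 29 of the 41 members, each running from 250 bases before to 50 bases after the gene's start. Where a gene had several entries, the most upstream was used. The cyclic AMP response element TGACGTCA was present in 4 of the 29 (13.8%). The same letters stood in 3.4% of 8938 promoters of equal length belonging to genes with a count in 5 or more cells. The 4 sites are shown with 12 bases on each side, in lower case with the element in capitals, and each element lies before the start of its RefSeq entry. For Kif17 that entry starts inside the gene as GENCODE M21 draws it (4:138250435-138301967, + strand).
Klc1 (chr12:111758823-111758854, + strand): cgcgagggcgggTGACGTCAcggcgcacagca
Kif5c (chr2:49619248-49619279, + strand): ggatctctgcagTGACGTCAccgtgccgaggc
Dctn3 (chr4:41723225-41723256, - strand): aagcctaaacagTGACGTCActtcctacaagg
Kif17 (chr4:138262153-138262184, + strand): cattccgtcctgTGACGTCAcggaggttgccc
The element reads the same on both strands, and a match of letters is not a bound site. Searched on both strands, the GC box GGGCGG stood in 69.0% of member promoters against 65.5% of that set, and the TATA box TATAAA in 3.4% against 6.6%. Fez1 gave the largest difference in the warm-sensitive comparison, and Dctn3 in that of all sensitive cells. Both are shown with the 250 bases before their RefSeq start. GENCODE M21, used below for gene positions, starts both genes slightly earlier, so the last bases of each stretch lie within its gene. The capitals mark the cyclic AMP response element, and none of these motifs was found in the Fez1 stretch.
Fez1 (chr9:36821641-36821890, + strand): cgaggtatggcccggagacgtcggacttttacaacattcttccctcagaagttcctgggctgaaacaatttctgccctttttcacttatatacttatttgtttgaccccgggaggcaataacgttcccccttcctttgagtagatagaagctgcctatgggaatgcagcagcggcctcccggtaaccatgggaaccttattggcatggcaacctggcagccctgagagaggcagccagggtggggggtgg
Dctn3 (chr4:41723164-41723413, - strand): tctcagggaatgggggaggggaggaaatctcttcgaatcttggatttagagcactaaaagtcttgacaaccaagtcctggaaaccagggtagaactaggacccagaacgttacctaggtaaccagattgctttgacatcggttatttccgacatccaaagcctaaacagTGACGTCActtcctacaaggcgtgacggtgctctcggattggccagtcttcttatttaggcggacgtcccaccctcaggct

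Which motor genes a preoptic neuron held was read as the share of cells at 10 CPM or more, called detected here, where CPM are counts per 1000000 counts of the cell. Of the 24 named genes that were not kept, 9 had no count in any cell and 15 had counts in 1 to 4 cells. Just outside the limit, with 4 cells, were Kif6, Kif20a, Kif16b, Dynlrb2 and Kif9. Just inside it were Kif26b, Dynlt1a and Kif7 with 5 cells and Kif1c with 6. Of 11 kinesins of cell division in the table only Kif22 was kept, while all 6 dynactin subunits, all 5 chains of dynein-1 and all 3 Kif5 genes were. Dynlt1a and Dynlt1b share 75.89% and 83.24% of their 50-base words with other genes, so their counts are uncertain. Exons of Kif3c overlap a gene on the opposite strand over 35.34% of their length, those of Kif2a over 19.22% and those of Dctn6 over 11.81%. The sources used here do not say whether the counting used strand.

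Per kilobase of exon, the light chain Dynlrb1 had the highest mean level over the 78 classified cells, at 248 CPM per kilobase. Dctn3, a small subunit in the shoulder of dynactin, followed at 96.3 CPM per kilobase, then Klc1 at 47.8, Dynll1 at 42.5 and Kif3a at 39.8. The lowest were Dynlt1a at 0.0848 and Kif1c at 0.0585 CPM per kilobase. Within a cell most genes were either at or near 0 or well above 10 CPM. Over 41 members and 78 cells, 44.7% of values were 0, 21.4% lay between 0 and 10 CPM, 12.6% from 10 to 100 CPM and 21.2% at 100 CPM or more. The grid of detection shares gives each member in each class.

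**Figure D1:**
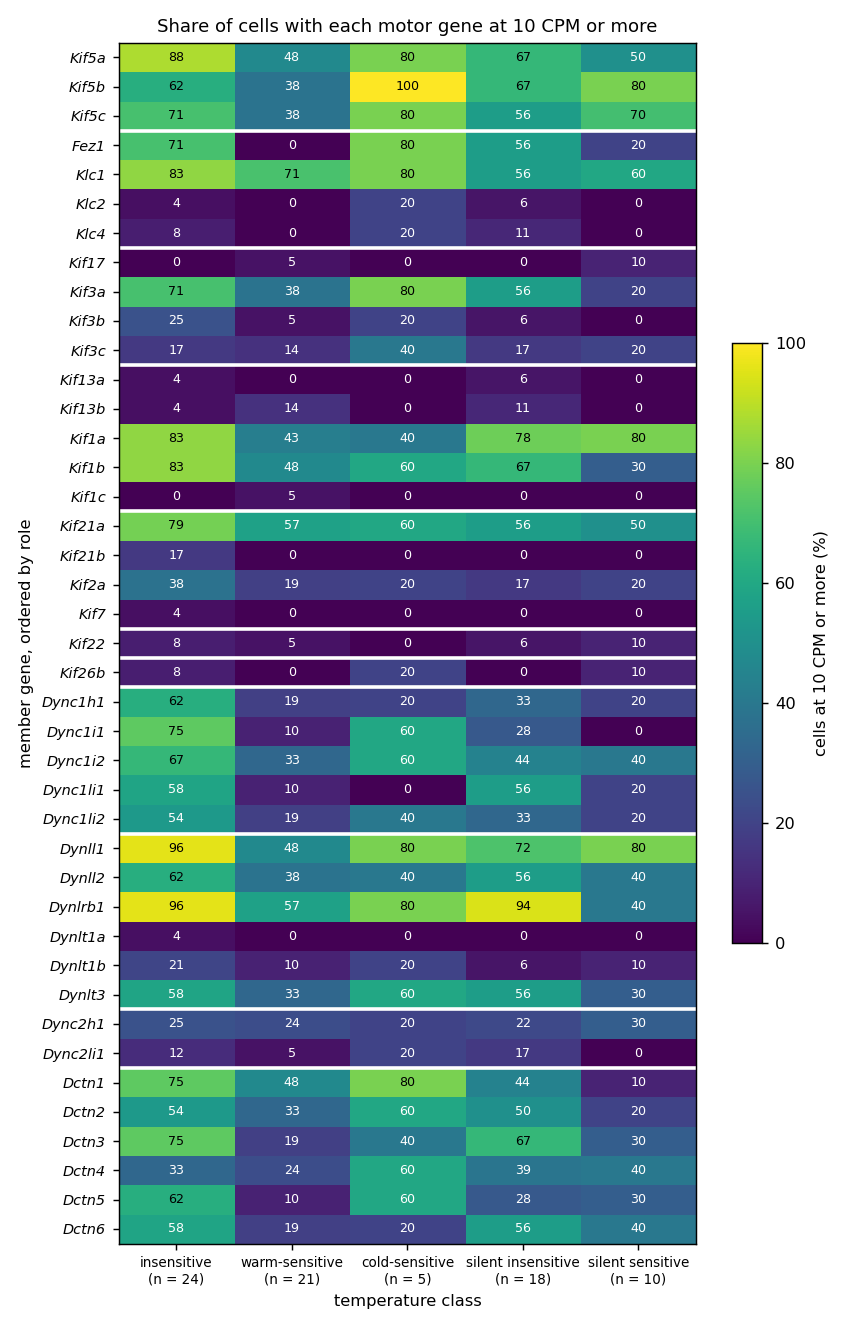
Share of cells (%, colour and printed value) with each of the 41 motor genes (rows, ordered by role) at 10 CPM or more in each of the 5 temperature classes (columns, n = number of cells). The warm-sensitive column is darker than the insensitive column for most rows from Kif5a to Dctn6, and Fez1 reads 0 in warm-sensitive cells.

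Measures of the libraries differed between classes, and every level and share given here rests on these libraries. The part that this had in the results was not tested. Total counts ran from 465167 to 3660726 per cell, and the ribosomal RNA precursor Rn45s took 53.2% of all counts. The medians for insensitive and warm-sensitive cells were 45.4% and 67.7% for this share, and 4022 and 3244 for genes with a count. Over all 96 cells the number of members detected and the number of genes with a count had a Pearson r of 0.87, both being read from the same libraries. All 12 pan-neuronal markers were detected in every class, and each cell had at least 1 of them. Markers of glia were present too. In at least 1 cell of a class, summed levels reached 17541 CPM for oligodendrocyte, 7177 CPM for astrocyte and 24980 CPM for microglial markers, and at least 1 astrocyte marker was detected in 23 of 24 insensitive cells. Endothelial markers reached at most 21 CPM. The part of glial RNA in the motor values was not tested. A letter in the cell title, whose meaning the labels do not give, was treated as a possible batch. Warm-sensitive cells lay mostly in letters E to H and insensitive ones mostly in A to D, so differences between cells of the same letter are given for the members' counts and for the members described at most length.

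The lowest, median and highest numbers of members detected were 9, 18.5 and 28 in insensitive cells and 3, 8 and 16 in warm-sensitive cells. The cold-sensitive class had 4, 19 and 21, the silent insensitive class 4, 15 and 25, and the silent sensitive class 3, 11 and 18. The classes overlapped, and the low count in warm-sensitive cells went with fewer genes detected. Per 1000 genes detected, median motor genes numbered 7.0 for the insensitive and 7.17 for the silent insensitive class. They numbered 6.19 for the warm-sensitive, 6.36 for the cold-sensitive and 5.61 for the silent sensitive class. Thinned to 100000 counts outside Rn45s, which 1 warm-sensitive cell could not reach, the median number of members with a count was 20 in insensitive and 14.5 in warm-sensitive cells. All genes with a count after the same thinning had medians of 3033.5 and 2174, a gap of like proportion. With Rn45s left out of the totals, the summed motor level had medians of 7526 CPM in insensitive and 6023 CPM in warm-sensitive cells, with ranges of 4489 to 10342 and 1601 to 17239.

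**Figure D2:**
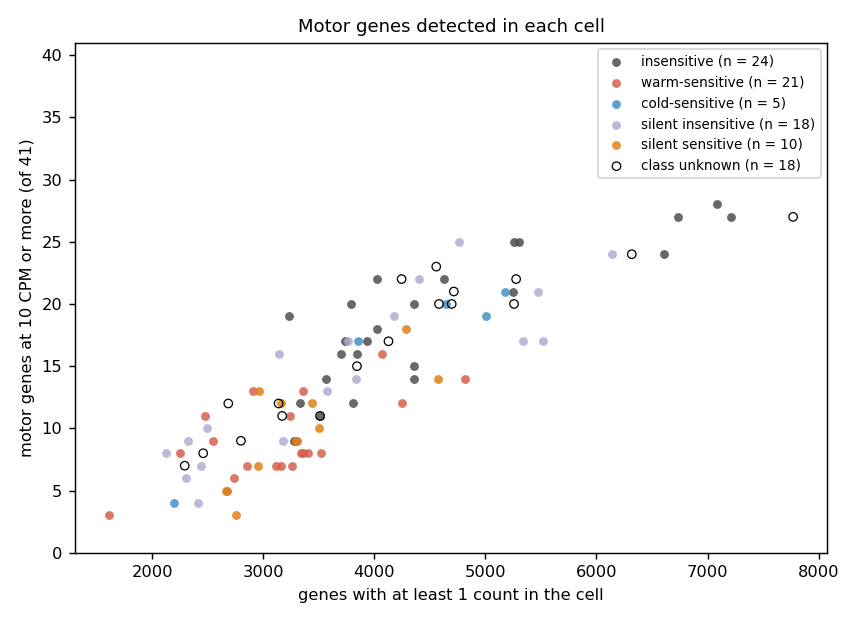
Number of motor genes at 10 CPM or more (vertical axis, of 41) against the number of genes with at least 1 count (horizontal axis) in each of 96 cells, coloured by class. Warm-sensitive cells sit between 3 and 16 members and insensitive cells between 9 and 28, and both lie along 1 rising band.

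The make-up of the motor counts overlapped between classes. Kinesin heavy and light chains held a median of 49.3% of a cell's motor counts in insensitive and 56.6% in warm-sensitive cells. Dynein chains held 31.1% and 26.9%, and dynactin subunits 18.2% and 9.34%. The ranges over cells were wide, from 0.0889% to 32.1% for dynactin in insensitive and from 0% to 39.6% in warm-sensitive cells. When counts were summed over the cells of a class, dynactin held 15.6% and 14.8%, so the gap between medians was not carried by the sums.

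Warm-sensitive neurons were compared with insensitive ones first. Of the 41 members, 25 were lower by 1 or more on the mean log2(CPM + 1) scale and 0 were higher by as much. The scale understates differences of low genes. Among all 11829 genes with a count in 5 or more cells, 30.0% were lower and 0.44% higher by 1 or more. The median difference was -1.33 for the members and -0.54 for those genes. Within title letters 23 of 41 members were lower, against 29.1% of those genes, with medians of -1.10 and -0.52. Motor genes are also commoner than most genes. Of 3025 genes detected in at least 24 of the 96 cells, a filter that does not use the classes and was added after seeing the data, 69.1% were lower by 1 or more, and of the 26 members that passed it 24 were. Of all 41 members, 28 lay below the median gene tested. On summed counts, where a few cells with many reads weigh most, 17 of 41 members were lower by 1 or more against 44.4% of all genes tested, a share near the background.

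By role, all 5 dynein-1 chains, 5 of 6 dynactin subunits, 4 of 6 dynein light chains and all 3 Kif5 heavy chains were lower by 1 or more. So were 2 of 4 among Klc1, Klc2, Klc4 and Fez1, 2 of 4 kinesin-2 genes and 2 of 5 kinesin-3 genes. Neither of the 2 genes of dynein-2, the motor of cilia, passed that size. Pan-neuronal markers moved with the motors, 11 of 12 being lower by 1 or more with a median of -1.90. Their summed level ran from 1166 to 12788 CPM (median 6029) in insensitive and from 1130 to 11505 CPM (median 2426) in warm-sensitive cells. Of 36 partner genes of the motors outside the name rule, 30 could be compared and 15 were lower by 1 or more, with a median of -1.10. The part that RNA yield or cell quality had in these differences was not tested.

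**Figure D3:**
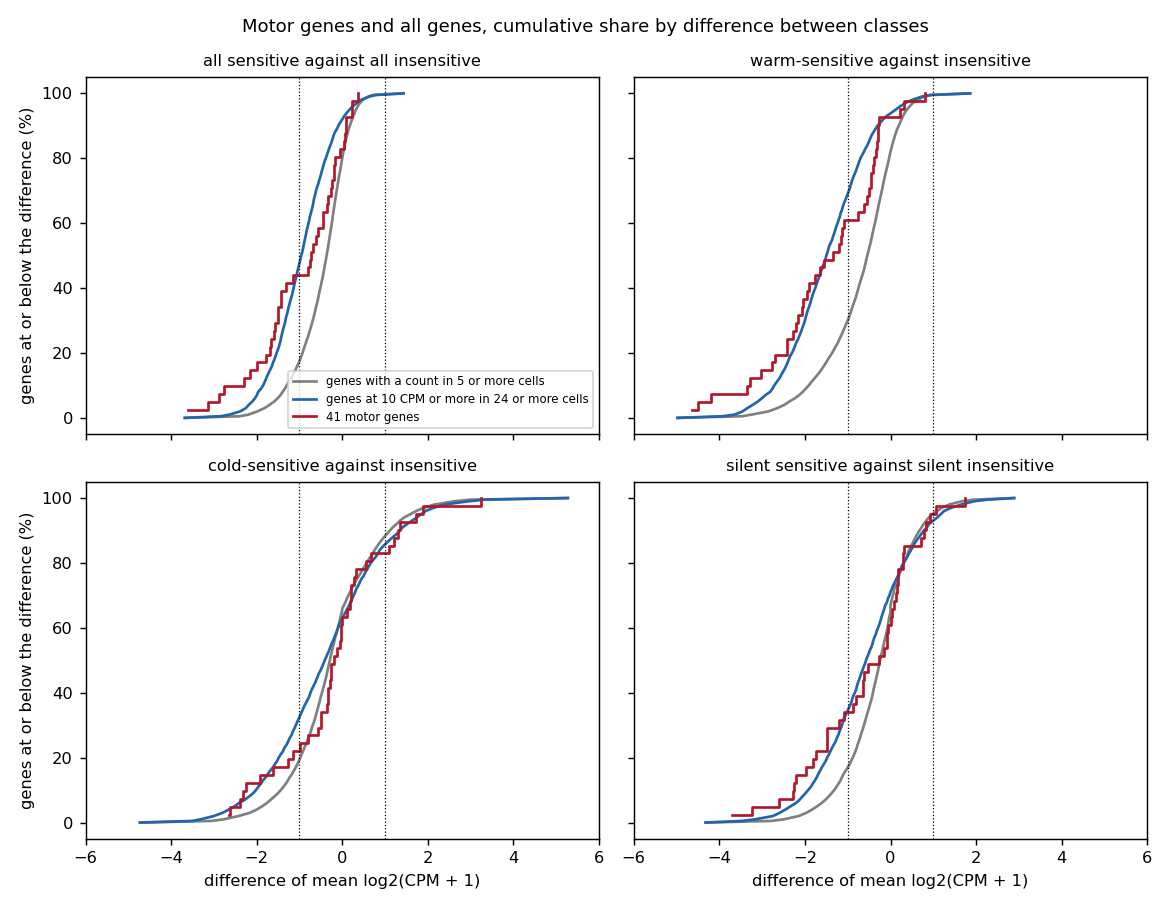
Cumulative share of genes (%) by the difference of mean log2(CPM + 1) in 4 comparisons, for the 41 motor genes (red steps), the 11829 genes with a count in 5 or more cells (grey) and the 3025 genes detected in 24 or more cells (blue); dotted lines mark -1 and 1. In the warm-sensitive panel 25 of 41 motor genes lie at or left of -1, and in the cold-sensitive panel 9 lie there and 7 at or right of 1.

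Fez1 (9:36821864-36878924, + strand, GENCODE M21 on mm10) had the largest difference of any member between these classes. In insensitive cells its lowest, median and highest levels were 0, 81.5 and 582 CPM, and in warm-sensitive cells 0, 0 and 1.23 CPM. It was detected in 17 of 24 insensitive cells (70.8%, exact Clopper-Pearson 95% interval 48.9% to 87.4%) and in 0 of 21 warm-sensitive cells, which allows a share of up to 14.3% by a limit of 3 cells and up to 16.1% by the exact interval. Intervals and such limits cover counting error only and treat cells as independent draws. Low counts were still present, since 10 of the 21 warm-sensitive cells had at least 1 Fez1 count and the 21 cells held 12 in all. Summed Fez1 was 0.442 CPM in warm-sensitive cells (exact Poisson 95% interval 0.228 to 0.772) and 169 CPM in insensitive cells (165 to 173). The difference was -4.65, and -3.68 within title letters. After thinning, 5.0% of 20 warm-sensitive and 75% of 24 insensitive cells had a Fez1 count, and among cells with at least 3000 genes the difference was -4.67.

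Fez1 was present in each of the other classes. It was detected in 4 of 5 cold-sensitive cells, at 88.8, 98.3, 130.7 and 175 CPM, with the remaining cell at 1.16 CPM. In silent insensitive cells it reached 10 of 18, with a lowest, median and highest level of 0, 17.8 and 794 CPM. In silent sensitive cells it reached 2 of 10, with a median of 0 and a highest level of 1132 CPM. Since no warm-sensitive cell had Fez1 detected, the 16 with a kinesin-1 heavy chain detected necessarily had it without Fez1. Among insensitive cells 16 had both and 7 had a heavy chain alone. Fez2, the close relative of Fez1, was lower in warm-sensitive cells too, by a difference of -2.15, with 2 of 21 against 9 of 24 cells.

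**Figure D4:**
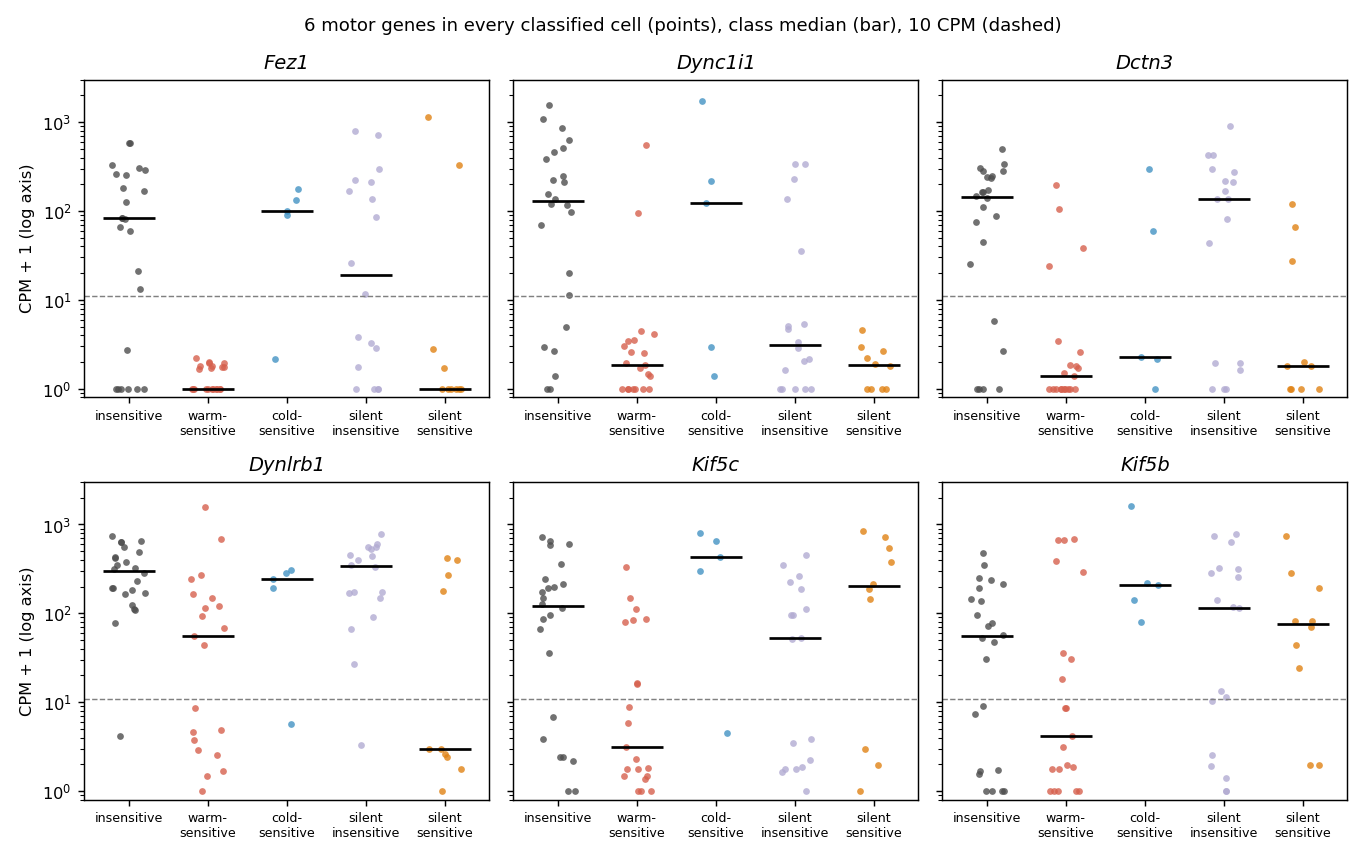
Level of 6 motor genes in each of 78 classified cells (points, CPM + 1 on a log axis) by temperature class, with the class median (bar) and the 10 CPM limit (dashed line). Fez1 lies below the line in all 21 warm-sensitive cells, and Kif5b lies above it in all 5 cold-sensitive cells.

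Dynein-1 gave the next largest gap through Dync1i1 (6:5725639-6028039, + strand), an intermediate chain found mainly in neurons that joins dynein to dynactin. Its lowest, median and highest levels were 0, 127.5 and 1559 CPM in insensitive cells and 0, 0.839 and 553 CPM in warm-sensitive cells. It was detected in 18 of 24 insensitive cells (75%, 53.3% to 90.2%) and 2 of 21 warm-sensitive cells (9.52%, 1.17% to 30.4%). The difference was -4.51, and -3.63 within title letters. At least 1 count was present in 22 of 24 and 14 of 21 cells. Its more widely expressed partner chain Dync1i2 differed by -1.64 (-2.17 within letters) and was detected in 16 of 24 and 7 of 21 cells.

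The heavy chain Dync1h1 was detected in 15 of 24 insensitive cells, with a median of 15.8 and a highest level of 335 CPM. At least 1 Dync1h1 count was present in 23 of 24 insensitive and 15 of 21 warm-sensitive cells. Only 4 of 21 warm-sensitive cells had 10 CPM or more, but 1 of them reached 1149 CPM. The difference of -2.17 (-2.27 within letters) therefore turned to 0.70 when counts were summed over cells before the comparison. The light intermediate chain Dync1li1, which holds cargo adaptors, was detected in 14 of 24 and 2 of 21 cells and differed by -2.69, and by -2.14 within letters. All 5 dynein-1 chains were detected together in 7 of 24 insensitive cells (29.2%, 12.6% to 51.1%) and in 0 of 21 warm-sensitive cells, and 7 warm-sensitive cells had none of them against 1 insensitive cell. Joint detection cannot exceed that of Dync1li1 alone, at 2 of 21 warm-sensitive cells. Warm-sensitive cells also had fewer genes detected of any kind, with a median of 1348 against 2429. No background for joint detection was computed.

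Among dynein light chains, which are small and bind many other proteins as well, Dynlrb1 and Dynll1 were nearly universal in insensitive cells. Dynlrb1 had a lowest, median and highest level of 3.20, 300.4 and 747 CPM in insensitive cells and was detected in 23 of 24. In warm-sensitive cells it had 0, 54.5 and 1588 CPM and was detected in 12 of 21, with a difference of -3.02, and of -2.64 within letters. Dynll1 went from 23 of 24 cells to 10 of 21, a difference of -3.36 and of -2.81 within letters. Its paralog Dynll2 differed by -1.10, and 5 warm-sensitive cells had Dynll2 without Dynll1 where 0 insensitive cells did. The Dynll2 value was -0.30 within title letters and 0.54 with DESeq2 size factors. Dynlt3, a light chain of the Tctex type, differed by -1.76.

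In dynactin, Dctn3 (4:41714798-41723170, - strand) stood out at -4.19, and at -3.55 within title letters. Its lowest, median and highest levels were 0, 144.3 and 498 CPM in insensitive cells and 0, 0.386 and 197 CPM in warm-sensitive cells. It was detected in 18 of 24 insensitive cells (75%, 53.3% to 90.2%) and 4 of 21 warm-sensitive cells (19%, 5.45% to 41.9%). Dctn5, which caps the pointed end of the dynactin filament with Dctn6, differed by -3.28 (-3.32 within letters) and was detected in 15 of 24 and 2 of 21 cells. Dctn1, the large subunit that grips the microtubule and dynein, differed by -1.94, and Dctn2 (dynamitin) by -1.90. Within letters these were -2.03 and -1.07. Dctn4 differed least, by -0.40. The filament of dynactin is made of actin-related protein 1, and its genes Actr1a and Actr1b, which the name rule does not cover, differed by -3.63 and -2.76. All 6 Dctn genes were detected together in 5 insensitive and 0 warm-sensitive cells, again with no background for joint detection.

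Among kinesins, Kif5c, a kinesin-1 heavy chain typical of neurons, was at 0, 119.6 and 729 CPM (lowest, median, highest) in insensitive and at 0, 2.10 and 334 CPM in warm-sensitive cells, a difference of -2.78 and of -3.01 within letters. Kif5a differed by -2.07 and the widely expressed Kif5b by -1.21, and within letters by -2.44 and -1.85. On summed counts these became 0.09 for Kif5a and 0.26 for Kif5b, while Kif5c stayed lower at -2.52. All 3 Kif5 genes were detected together in 11 of 24 insensitive and 3 of 21 warm-sensitive cells, also with no background for joint detection. Kif1a, which carries synaptic vesicle precursors and dense-core vesicles, differed by -2.42, and Kif3a, a motor subunit of kinesin-2, by -2.27. Within letters these were -1.74 and -2.52. Klc1 was detected in 20 of 24 and 15 of 21 cells and differed by -1.33. Kif21a, a kinesin-4 of axons, differed by -1.55, by -0.77 within letters and by -0.03 among cells with at least 3000 genes. For Kif5b that setting gave -0.15.

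The 5 cold-sensitive neurons had motor genes on both sides. Against insensitive cells 9 of 41 members were lower and 7 higher by 1 or more, where 19.4% and 11.7% of all genes tested were. Of the 26 members among genes detected in 24 or more of the 96 cells 9 were lower, against 32.5% of those genes. The median was -0.20 for the members and -0.29 for all genes tested. Within title letters 9 were lower against 20.5%, and on summed counts 10 against 48.4%. Of the pan-neuronal markers 8 of 12 were lower by 1 or more, with a median of -1.12. Cell 4 stood apart with 4 members detected against 17 to 21 in the others, and with 482 genes detected, and without it the members' median was 0.17. All 9 microglial markers were higher by 1 or more in this comparison, with a median of 1.57 and a summed level of 10.4 to 11396 CPM, against 3.49 to 16794 CPM in insensitive cells.

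Kif5b had the largest positive difference in cold-sensitive cells. It stood at 221, 206, 142, 1596 and 79.3 CPM in cells 1 to 5, so it was detected in all of them, and in 15 of 24 insensitive cells. All 5 values lay above the insensitive median of 54.2 CPM, and cell 4 lay above the highest insensitive cell at 479 CPM. The difference was 3.25, 2.81 within letters and 2.57 without cell 4. Kif5c stood at 432, 653, 804, 3.47 and 298 CPM, a difference of 1.89, 1.78 within letters and 3.26 without cell 4. Kif5a went the other way, at 23, 28.3, 32.1, 1.16 and 75.4 CPM, with a difference of -1.93. Per kilobase, Kif5c was the leading Kif5 gene in 4 and Kif5b in 1 of the 5 cells. Among the 23 insensitive cells with a Kif5 gene detected, Kif5a led in 10, Kif5c in 11 and Kif5b in 2.

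Of the 6 dynactin subunits 2 were lower and 2 higher by 1 or more in cold-sensitive cells, and 2 of 5 dynein-1 chains were lower and 0 higher. Dctn6 was at 0, 0.41, 43.5, 1.16 and 0 CPM in cells 1 to 5, a difference of -2.66, and of -2.26 within letters. Dync1li1 was at 0, 2.05, 2.19, 2.31 and 0 CPM, a difference of -2.61 (-1.82 within letters), and 0 of 5 cells passing 10 CPM allows a share of up to 60% by a limit of 3 cells and 52.2% by the exact interval. These genes were at 10 CPM or more in 14 of 24 insensitive cells each. Pafah1b1, a dynein regulator outside the name rule, was higher by 1.77, being detected in 4 of 5 against 11 of 24 cells. Over all partners 4 of 30 were lower and 2 higher by 1 or more.

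Silent sensitive against silent insensitive neurons is a comparison that shares no cell with the previous ones. Here 14 of 41 members were lower and 2 higher by 1 or more, against 17% and 4.78% of all genes tested, with medians of -0.27 and -0.24. On summed counts 15 of 41 were lower against 41% of all genes tested, and within title letters 13 of 41 against 16.3%. Among genes detected in 24 or more of the 96 cells 34.7% were lower, and 13 of the 26 members that passed were. Of the dynactin subunits 4 of 6 were lower by 1 or more, and of the dynein-1 chains 3 of 5. Pan-neuronal markers had 4 of 12 lower by as much and a median of -0.47.

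Dynlrb1 gave the largest difference, at -3.70, and -3.14 within title letters. It was detected in 17 of 18 silent insensitive cells (94.4%, 72.7% to 99.9%), with a lowest, median and highest level of 2.29, 339.9 and 780 CPM. In silent sensitive cells it was detected in 4 of 10 (40.0%, 12.2% to 73.8%), with 0, 1.98 and 414 CPM. Dctn3 followed at -3.24, with 12 of 18 and 3 of 10 cells and medians of 136 and 0.807 CPM. Dctn1 differed by -2.62 (-3.06 within letters) and was above 10 CPM in 8 of 18 and 1 of 10 cells. No silent sensitive cell had Dync1i1 at 10 CPM or more, which allows a share of up to 30.0% by a limit of 3 cells and 30.8% by the exact interval, and 5 of 18 silent insensitive cells did. Fez1 differed by -2.25 on the mean log scale but by -0.09 on summed counts, since 1 silent sensitive cell held 1132 CPM.

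Kinesins differed in both directions in the silent cells. The 2 members higher by 1 or more, Kif5c and Kif1a, were 4.88% of the 41, beside 4.78% of all genes tested, a share near the background. Kif3a differed by -2.28 and Kif1b, a mitochondrial and vesicle kinesin, by -2.20, whereas Kif5c was higher by 1.73 and Kif1a by 1.07. Within letters these 4 differences were -1.90, -2.67, 2.46 and 0.90. Kif5c had a lowest, median and highest level of 0, 199.9 and 846 CPM in silent sensitive and 0, 51.2 and 453 CPM in silent insensitive cells. It was detected in 7 of 10 and 10 of 18 cells, and the ranges overlapped. Of the cells with a Kif5 gene detected, Kif5c led per kilobase in 6 of 9 silent sensitive and 2 of 15 silent insensitive cells, where Kif5a led in 8. Among partners, 11 of 30 were lower and 3 higher by 1 or more, led by Actr10, the dynactin pointed-end actin-related protein, at -2.55 and Appbp2, which binds cargo to kinesin-1, at -2.54.

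All 36 sensitive cells together were lower in 18 of 41 members and higher in 0 when set against all 42 insensitive cells, where 17.6% of all genes tested were lower and 0.11% higher by 1 or more. On summed counts 13 of 41 were lower against 33.0% of all genes tested, and within title letters 17 of 41 against 18.9%. Of genes detected in 24 or more of the 96 cells 47.7% were lower, as were 18 of the 26 members that passed. The median was -0.74 for the members and -0.37 for all genes tested. This comparison reuses the cells of those above. Dctn3 led at -3.62, detected in 9 of 36 and 30 of 42 cells, and -3.18 within title letters. Fez1 followed at -3.13 with 6 of 36 and 27 of 42 cells, then Dynlrb1 at -2.89, Dync1i1 at -2.76, Dync1li1 at -2.31 and Kif1b at -2.16. Dctn3 was lower in each sensitive class than in its own insensitive class, at -4.19 in warm-sensitive, -2.38 in cold-sensitive and -3.24 in silent sensitive cells, the first and second of which share the insensitive cells. Dctn3 was singled out by its rank in these same cells, so these values are no separate support for it. Whether these values differ between classes was not tested.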

How the data were processed

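RNA of 96 picked neurons was amplified with Smart-seq2 and Nextera XT, per the labels' protocols. The authors deposited read counts as whole numbers. They also deposited a normalized signal table, used here only as an alternative. Per the submitters' processing notes, FastQC, STAR and edgeR were used (no versions given), with build mm10. Annotation, counting and normalization were not given in the sources used here.

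CPM are counts per 1000000 of the cell's total with Rn45s. A gene was detected at 10 CPM or more. A difference is the mean log2(CPM + 1) over the cells of the first class minus that of the second, and 1 or more in size counted as lower or higher. All 11829 genes with a count in 5 or more cells were compared. Single genes are printed only for members and named partners, and partners and markers are also given as sets. The 18 unclassified cells entered no comparison. Named were 18 members chosen for their roles in the warm-sensitive comparison. In each comparison up to 6 members per direction were also named, ranked by difference among those detected in at least 25% and 3 cells of either class, whose share and difference had 1 sign and which kept 2/3 of the difference without any 1 cell. Partners followed the same ranking, up to 4. Values singled out beyond this were chosen after they were seen. The members and lists were chosen with earlier results of these data known.

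Alternatives were other pseudocounts, filters, totals and size factors (TMM, DESeq2), thinning, summed counts, title letters and leaving out cells. The measures were tried on simulated cells in which a gene had the same detection rate in both classes. Differences between classes in Rn45s share or in genes per cell were therefore not covered. Genes were located with GENCODE M21 on mm10, where all 41 members matched by symbol. Python 3.11.15 was used with matplotlib 3.10.9, scipy 1.17.1, pandas 2.3.3 and numpy 2.4.6, and R 4.3.3 with DESeq2 1.42.0 and edgeR 4.0.16.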

Additional observations from a re-analysis of the deposited data

Results flagged for a closer look

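In 46 combinations of a class of 5 or 10 cells with a gene or a cell measure, 9 had 1 cell far from the rest. A rate of about 1 in 20 by chance was not worked out for such values, of which 44.7% were 0 over all members. The combinations also share cells, and most flags fell on the same cell, so 9 of 46 is not shown to be an excess. Cold-sensitive cell 4 had 4 members detected against 17 to 21 in the other 4 cells. The same cell was far below the others for Dynll1 (2.31 CPM), Dynlrb1 (4.62 CPM), Fez1 (1.16 CPM), Kif5c (3.47 CPM) and Klc1 (3.47 CPM), for which the others started at 108, 192, 88.8, 298 and 104 CPM. Cold-sensitive cell 3 was far above the others for Dctn6 (43.5 CPM against at most 1.16) and Dync1h1 (275 CPM against at most 3.83). Silent sensitive cell 3 held Dctn1 at 43.0 CPM, where the other 9 cells had at most 4.98 CPM.

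Among the 18 cells without a class, which no comparison used, cell 4 had a summed motor level of 6247 CPM, just above the highest insensitive cell at 6236 CPM.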

How the results depend on the processing

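The direction of the members' median held in the warm-sensitive comparison and in that of all sensitive cells under each of the 16 alternatives run, while those of the cold-sensitive and silent comparisons did not. The cold-sensitive median ran from -0.44 to 0.34 over the alternatives. The silent median ran from -1.19, among genes detected in at least 25% of either class, to 0.075, among cells with at least 3000 genes set against the median gene. Counts of members lower by 1 or more moved by over 1.5 times under 2 settings. With DESeq2 size factors they were 11 for warm-sensitive (12.3% of all genes tested), 8 for all sensitive (4.7%) and 8 for silent sensitive cells (9.2%). The warm-sensitive median was then -0.37, where the median of all genes tested moved from -0.54 to -0.20. With a pseudocount of 10 CPM the counts were 16 (10.6% of all genes tested), 11 (3.9%) and 9 (4.7%) in the same order. Without a filter on low genes the warm-sensitive median was -0.38 over 65 named genes.

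Of 592 differences of named genes under the alternatives, 579 kept their sign and stayed within the spread between cells, 5 moved further and 8 changed sign, all 8 in the warm-sensitive comparison. On summed counts Dync1h1 was 0.70, Kif5a 0.093 and Kif5b 0.26. With DESeq2 size factors Dynll2 was 0.54, Klc1 0.092 and Kif5b 0.0019. Kif5b was 0.51 without cells over 75% Rn45s, and 0.27 among cells with at least 3000 genes when set against the median gene. The spread between cells was wide. For Kif21a the standard deviation on the log2 scale was 2.81 in insensitive and 3.73 in warm-sensitive cells. Staying within it is a loose limit, so the 579 do not show that the sizes were steady. Of the results on shares of cells, 55 moved under the alternatives and 19 stayed the same.

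Leaving out each cell in turn gave 23 to 25 lower members for warm-sensitive, 18 for all sensitive, 8 to 13 for cold-sensitive and 12 to 16 for silent sensitive cells. The medians ran from -1.59 to -1.11, from -0.83 to -0.61, from -0.32 to 0.17 and from -0.61 to -0.16 in that order. The cold-sensitive median turned positive without cold-sensitive cell 4. Settings on cells with at least 3000 genes kept 13 of 21 warm-sensitive and 24 of 24 insensitive cells, and were chosen after seeing the data, as was the filter on genes detected in 24 or more cells. No paired analysis was possible because the labels give no replicate numbers shared between classes. Since totals include Rn45s, 10 CPM asks for a larger part of the other RNA where the Rn45s share is high. This limits the shares of genes near 10 CPM, most of all in warm-sensitive cells. Their median Rn45s share was 67.7% against 45.4% in insensitive cells, and their median total 1191990 against 1481896.5 counts. Outside Rn45s the median count was 314892 against 761928.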

Other observations

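In the 18 cells whose class the labels leave unknown, the lowest, median and highest numbers of motor genes at 10 CPM or more were 7, 18.5 and 27. Their summed motor level ran from 1698 to 6247 CPM with a median of 4287 CPM. Fez1 was at 10 CPM or more in 8 of these 18 cells, with a highest level of 555 CPM. Kif21b, a kinesin of the same family as Kif21a, was at that level in 6 of the 18 cells and in 4 of 24 insensitive cells, and in none of the other 54 classified cells.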
